A study of Mus musculus with 8 samples.

Results

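BMEL cells, liver progenitors of embryonic mouse origin that can form hepatocytes or bile duct cells, were compared in the medium labelled DIFF and in the medium labelled CM. Every array of these 2 groups was used, 2 DIFF arrays and 3 CM arrays, which make 5 of the 8 arrays of the series. The other 3 arrays carry RNA of the same line in the medium labelled NoRX and serve here to place the difference and to estimate the spread. All groups share the line, and no other genotype, agent, dose or time is given in the labels. The series title names conditioning by amniotic epithelial cells, of human origin, and the labels spell out neither CM, DIFF nor NoRX. A single line stands behind all values, and no label states whether replicates are separate cultures, so the p-values cover the scatter of these arrays alone, which may be technical. Sample titles number the DIFF arrays 1 and 2, while the source label calls both replicate 1.

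Hepatoblasts of the embryonic liver give rise to hepatocytes, which make albumin and most plasma proteins and carry out urea synthesis and drug metabolism, and to cholangiocytes, the keratin-rich cells that line the bile ducts. Maturation of hepatocytes is known to depend on liver-enriched transcription factors, on glucocorticoids and on cytokines of the interleukin-6 family. Several pathways that bear on a change of medium act through short DNA elements near gene starts, and their best known targets serve as readouts of hormone, interferon, glucose and oxidant signals.

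RNA was hybridised as Cy3-labelled cRNA to Agilent 1-colour arrays. Levels below are log2 signals relative to the 75th percentile of the same array, and differences are DIFF minus CM on that log2 scale, with their SE from limma. Over 13816 genes with a value on every array, CM arrays correlated at 0.9924 to 0.9954, the DIFF arrays at 0.9949, and CM with DIFF arrays at 0.94 to 0.9442, after the removal of disagreeing spots described next. DIFF replicate 2 stood apart from the other arrays. It had 46.4% of its spots well above background, against 50.8% to 53.5% on the other 7, and it carried a bright patch. On account of this patch, 927 of 4646 spots in rows 1 to 30 were left out because the 2 DIFF arrays disagreed over 4-fold. DIFF replicate 2 was the brighter array in 749 of these 927 spots and the dimmer in the rest. Of the spots in these rows with a value on both DIFF arrays 21.0% were left out, against 1.26% past the same fold in other rows. Of the genes on the array, 222 lost every probe in this way. Disagreements just outside and just inside the rule were 1.99 and 2.01 on the log2 scale. DIFF replicate 2 also lay below DIFF replicate 1 in 92.9% of genes, with a median difference between them of -0.215. Several genes named below have their probe in rows 1 to 30, among them Sult1a1, Sds, Afp, Nqo1, Prom1, Sox9, Lypd3, Tgfb1, Bmp2 and Csf2. CM replicates 2 and 3, and both DIFF arrays, lay in row 2 of the slide.

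Some epithelial and liver markers were detected in both media. Others, such as Spp1, Prom1 and Cldn4 below, were above background on every CM array but not on every DIFF array. Krt19, Krt8 and Krt18, keratins of simple and ductal epithelium, Cdh1, the epithelial cadherin, Hnf4a, a master regulator of the liver epithelium, and Afp, the fetal albumin, were well above background on all 5 arrays. The fetal markers Igf2, Gpc3 and Lin28b were above background on none of the 8 arrays, and Dlk1 was above it on 1 of 3 CM arrays and on no other. Among markers of mature hepatocytes, Cyp3a11 and Pck1 were above background on none of the 8 arrays.

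Promoter sequences of 3 genes are shown because each of these genes moved with a group described below and carries a known element of its pathway. They are from RefSeq on assembly GRCm38.p6, all on the plus strand, and end at the base before the annotated start. Capitals mark matches to the glucocorticoid response element GNACA and TGTNC set 3 bases apart in Sgk1, the interferon-stimulated response element, 2 copies of GAAA set 2 bases apart, in Ifit3 (read there on the opposite strand) and the carbohydrate response element, 2 copies of CACGNG set 5 bases apart, in Txnip.
Sgk1, chr10:21993640-21993889: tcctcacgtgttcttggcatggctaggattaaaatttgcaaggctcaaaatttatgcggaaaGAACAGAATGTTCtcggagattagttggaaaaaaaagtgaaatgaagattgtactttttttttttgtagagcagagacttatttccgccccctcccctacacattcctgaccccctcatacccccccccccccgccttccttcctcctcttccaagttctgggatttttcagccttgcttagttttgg
Ifit3, chr19:34583279-34583528: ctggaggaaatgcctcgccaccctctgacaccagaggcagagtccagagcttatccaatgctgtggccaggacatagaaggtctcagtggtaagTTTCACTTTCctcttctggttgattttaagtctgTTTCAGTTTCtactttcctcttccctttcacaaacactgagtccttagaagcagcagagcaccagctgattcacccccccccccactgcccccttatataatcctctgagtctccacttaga
Txnip, chr3:96557707-96557956: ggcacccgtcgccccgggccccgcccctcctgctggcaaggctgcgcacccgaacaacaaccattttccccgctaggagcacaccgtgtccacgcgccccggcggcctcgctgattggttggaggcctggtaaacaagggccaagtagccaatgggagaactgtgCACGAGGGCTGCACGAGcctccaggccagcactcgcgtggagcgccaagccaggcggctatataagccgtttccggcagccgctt
The match began at -188 in Sgk1, -156 and -122 in Ifit3 and -85 in Txnip, counted from the start. Sgk1 has 6 annotated starts in the table, of which 1 is shown. Both strands of the last 250 bases before a start were searched, a position matched on both was counted once, and no printed match overlapped one of another motif. The interferon element was found in 13 of 26 promoters of the interferon list (50%), against 3.46% of 27025 genes. The glucocorticoid element was in 3 of 23 promoters of its list (13%, against 0.44% of all genes) and the carbohydrate element in 1 of 11 of the glucose list (9.09%, against 0.0518%). A match describes these letters and is no evidence of binding.

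The media differed in a large share of the transcriptome. Of 13855 genes tested, 6443 (46.5%) passed an adjusted p of 0.05, 2645 higher in DIFF (19.1%) and 3798 lower (27.4%), by limma with Benjamini-Hochberg adjustment. Counts for every gene list below are to be read against these shares of 19.1% and 27.4%, and no list was tested as a set. The levels of CM and DIFF arrays did not overlap in 9893 genes (71.4%). Differences of at least 2-fold past the test were 932 higher (6.73%) and 1454 lower (10.5%). Genes above background on every array of 1 medium and on no array of the other, past the test, numbered 67 higher (0.484%) and 199 lower (1.44%), and their folds are given as bounds. Where such a gene was also above background on no NoRX array, it entered the test through 1 medium alone. The filter then set its direction, in the gene lists as well. Within row 2 of the slide alone the counts were 2701 higher and 3826 lower, and with the row as a block 3015 and 4215. Without DIFF replicate 1 the counts were 3102 and 6336, without DIFF replicate 2 they were 4684 and 4334, and with normexp background correction 1478 and 2339. The split between directions depended on the scaling. The lower genes were 58.9% of the calls with the 75th percentile, 43.6% when arrays were centred on their median (4104 higher, 3173 lower) and 49.1% with the 75th percentile of detected probes (4552 higher, 4396 lower), a setting chosen after the data were seen. The median difference of all genes was -0.098 with the 75th percentile, 0.062 with median centring and -0.002 with detected probes. Of the genes described below as past the test, Il1rn, Cyp1b1, Cyp2d22, Abcc2, Spp1, Prom1, Gja1, Fbln5, Cdkn1c, Bhlhe41 and Lilrb4a were above background on 1 of 2 DIFF arrays.

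**Figure D1:**
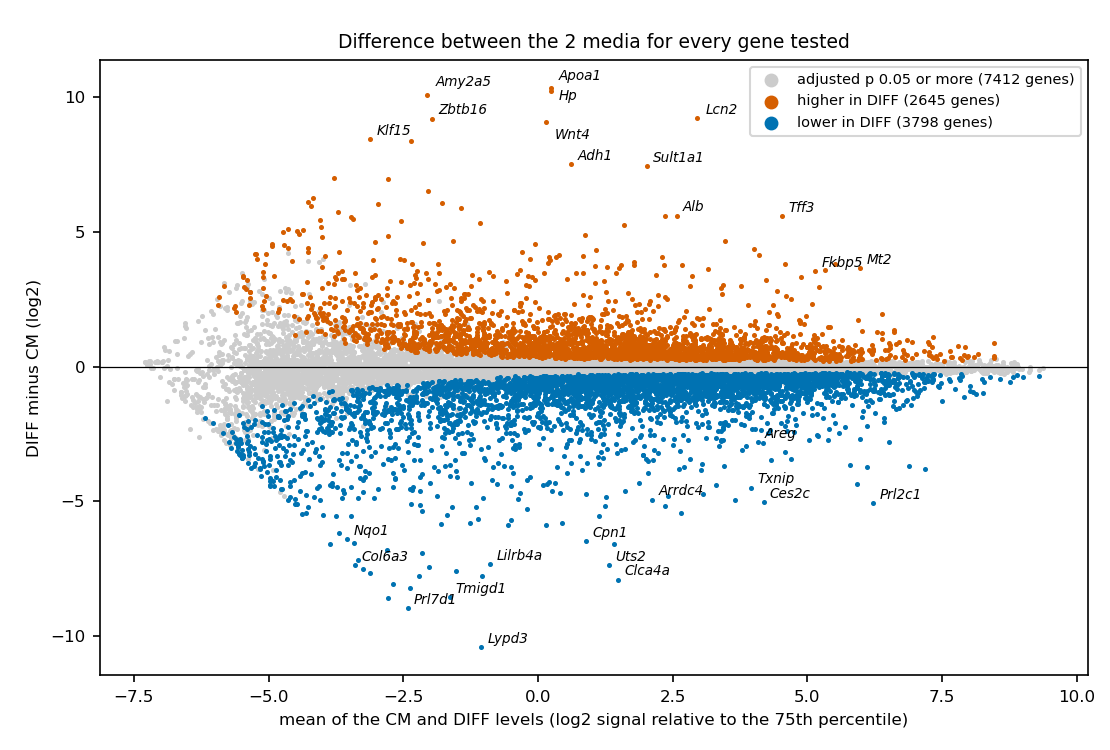
Difference between DIFF and CM (log2, vertical axis) against the mean level of each of the 13855 genes tested (log2 relative to the 75th percentile, horizontal axis). Orange marks the 2645 genes higher in DIFF, blue the 3798 lower and grey the rest, and the widest differences on either side, such as Lcn2 at 9.23 and Clca4a at -7.90, lie well outside the bulk. Differences of genes not above background in 1 medium are drawn as fitted and have only a bound.

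Genes of hepatocyte plasma proteins were higher in DIFF as a group. Of 26 tested, 18 were higher and 2 lower, with a median difference of 2.66, against -0.098 over all genes. Alb, the main carrier protein of plasma, read -0.12, -0.53 and -0.04 on the CM arrays and 5.53 and 5.23 on the DIFF arrays, 48.9-fold higher (5.61 ± 0.49, limma adjusted p = 2.29e-06). Its NoRX arrays lay at -3.06, -3.44 and -4.05, so the 3 media ordered NoRX, CM, DIFF without overlap. Ttr, the carrier of thyroxine and retinol, read 1.05, 0.89 and 1.49 in CM against 5.95 and 5.65 in DIFF (4.66 ± 0.29, adjusted p = 1.37e-07), with NoRX at 1.15 to 1.38, inside the range of CM. Azgp1, a secreted lipid-mobilising glycoprotein, had the widest difference of the 26, from -4.70, -4.75 and -4.99 in CM to 1.41 and 1.1 in DIFF (6.07 ± 0.36). Serpina1a, an antitrypsin of plasma whose probes may be shared with its close relatives, read -1.42, -2.03 and -1.62 against 2.66 and 2.09. The fetuin gene Ahsg had the order of Alb. It was not above background on any NoRX array and read -0.17, -0.48 and 0.27 in CM and 2.82 and 2.50 in DIFF (2.79 ± 0.39). In a culture, fewer cells of a type and less RNA per cell cannot be told apart.

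A few plasma protein genes ran the other way or did not pass. Hpx, the heme scavenger hemopexin, was lower in DIFF (-1.77 ± 0.15), as was the vitamin D carrier Gc (-1.15 ± 0.26). Apoh, Hrg, Rbp4, Igf1, Serpina10 and Serpinc1 did not pass the test, with differences of -0.52 to 0.26. Of these, Igf1 was above background on only 1 CM and 1 DIFF array, and Hrg on 2 CM arrays and 1 DIFF array. Cpn1, the catalytic subunit of plasma carboxypeptidase N and a gene of the fetal list, was far lower. It read 4.15, 4.20 and 4.04 in CM and -2.10 and -2.61 in DIFF, 89.5-fold lower (-6.48 ± 0.20, adjusted p = 6.83e-10). Afp was higher in DIFF, at 3.61 and 3.34 against 1.80, 1.67 and 1.76 (1.73 ± 0.14). Of the hepatoblast and fetal list, 4 of 12 were higher and 5 lower, among them the chromatin protein gene Hmga2 (-1.69 ± 0.13) and the cell cycle inhibitor Cdkn1c (-1.97 ± 0.35). Hmga2 lost its call with the patch kept and Cdkn1c with normexp (limma adjusted p = 0.23 and 0.175).

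Apolipoprotein genes, which encode the protein shells of lipoproteins, split in direction, with 6 of 16 higher and 6 lower (4 and 2 with normexp). Apoa1, the main protein of high-density lipoprotein, read -5.20, -5.25 and -4.36 in CM, where 1 of 3 arrays was above background, and 5.61 and 5.22 in DIFF (10.35 ± 0.49). Apoc3, an inhibitor of lipoprotein lipolysis, was above background on 2 of 3 CM arrays and read 1.64 and 1.40 in DIFF (5.89 ± 0.53). Apoa4 was above background only on the DIFF arrays, where it was at least 18.7-fold higher. Such a bound sets the mean of the bright group against a floor in the dim group, which on each array is the dimmest probe still well above background, or the gene itself where that is brighter. The bounds hold for the main processing alone, and some alternatives gave smaller differences. The smallest log2 differences were 2.77 for Apoa4 and, among genes below, -4.97 for Prl7d1, -0.757 for Dsc2 and -0.027 for Hnf4g. Apob, the structural protein of very-low-density lipoprotein, read 2.31, 2.09 and 2.37 in CM and 2.27 and 2.23 in DIFF (-0.01 ± 0.19, adjusted p = 0.97).

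Acute phase proteins are liver products that rise in inflammation, and 10 of 16 tested were higher in DIFF and 2 lower (median 2.74, or 2.52 with genes at their bound). Lcn2, the siderophore-binding lipocalin, read -1.76, -1.59 and -1.62 in CM and 7.71 and 7.43 in DIFF (9.23 ± 0.43). NoRX lay between them at 0.40, 1.34 and 1.06. Hp, haptoglobin, read -4.63, -5.07 and -4.91 in CM, above background on 2 of 3 arrays, and 5.48 and 5.22 in DIFF (10.22 ± 0.42). For both genes the groups lay far apart and the arrays of each group close together. Lbp, which binds bacterial lipopolysaccharide, was lowest in CM, at 1.96, 1.58 and 1.91, against 4.41 to 4.54 in NoRX and 6.46 and 5.95 in DIFF (4.39 ± 0.21). Orm2 and Saa3 were above background only in DIFF, at least 7.83-fold and at least 7.97-fold higher. Orm1 and Orm3 were also above background only in DIFF. The filter thus set the direction of Orm1, Orm2, Orm3 and Saa3, and they say little in the list's count and median. Saa1 did not pass (-0.17), nor did Saa2, which was above background on every CM array and on no DIFF array. Il1rn, the interleukin-1 receptor antagonist, was lower in DIFF (-4.60 ± 0.24), so the list did not move as a whole. Of 24 cytokine, chemokine and NF-kB genes, 3 were higher and 12 lower (1 and 8 with normexp), with Csf2 at -2.10 ± 0.23, Il11 at -1.74 ± 0.20 and the receptor subunit gene Il6st at 1.96.

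Of 20 coagulation and complement genes 5 were higher (25%) and 3 lower (15%), against 19.1% and 27.4% of all genes, and without weights in the fit 8 and 5. C4bp, a complement inhibitor, read -0.38, -0.91 and -0.42 in CM and 3.24 and 3.02 in DIFF (3.70 ± 0.27). C4b, complement component 4, ran opposite, at 2.39, 2.52 and 2.49 in CM and -1.69 and -1.98 in DIFF (-4.30 ± 0.16). C3, F2, F9, F10 and Proc did not pass, with differences of -0.60 to 0.39.

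**Figure D2:**
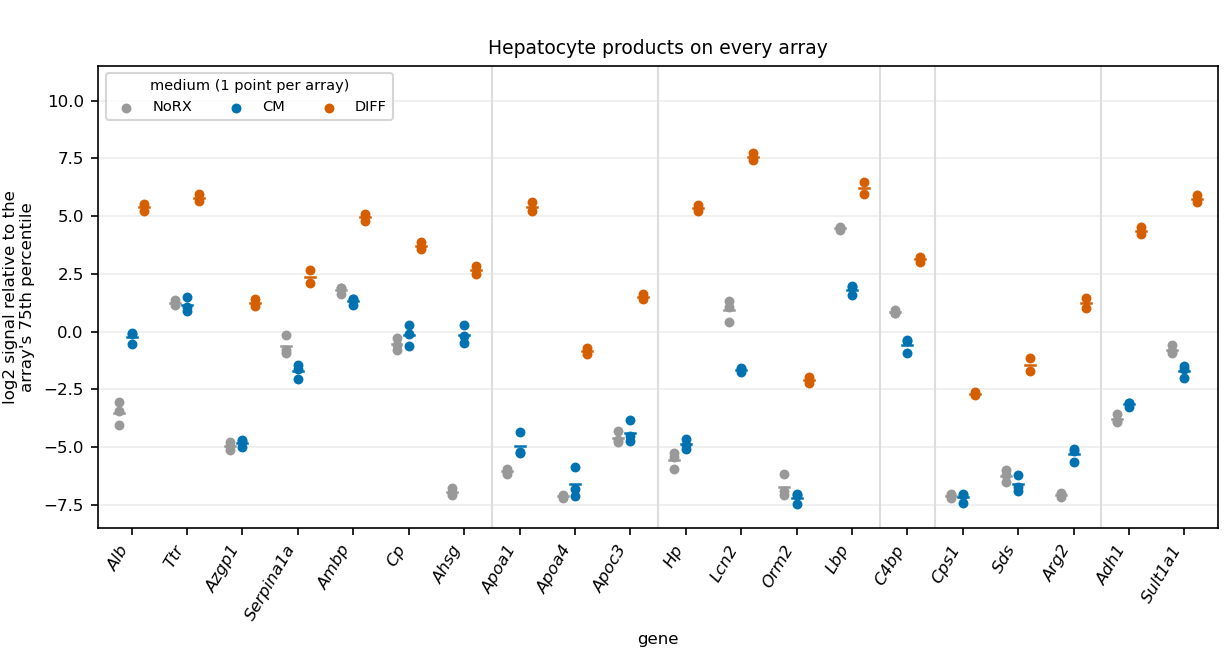
Level of 20 hepatocyte genes chosen for being higher in DIFF (log2 relative to the 75th percentile, vertical axis) on every array, with points for arrays, short bars for group means, and grey NoRX, blue CM and orange DIFF. Grey vertical lines separate plasma proteins, apolipoproteins, acute phase proteins, a complement inhibitor, amino acid enzymes and detoxifying enzymes. By this choice both DIFF points lie above all CM points in each of the 20. Among all genes tested, CM and DIFF arrays did not overlap in 71.4%. Hepatocyte genes that were lower or did not pass, such as Hpx, Gc and Apob, are not drawn.

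Enzymes of amino acid, urea and sugar metabolism followed the plasma proteins in direction, with 10 of 20 higher in DIFF and 0 lower by limma (median 0.69). At an unadjusted p under 0.05 also 0 were lower, but without weights in the fit 13 were higher and 2 lower. Arg2, the mitochondrial arginase, was above background on no CM array and read 1.45 and 1.02 in DIFF, at least 74.6-fold higher (adjusted p = 9.56e-07). Sds, the serine dehydratase of gluconeogenesis, was at least 12.4-fold higher and Cps1, the first enzyme of the urea cycle, at least 5.14-fold, both above background only in DIFF. Arg2 was above background on no NoRX array either. The filter thus set the direction of Arg2, Sds and Cps1, and they say little in the count. Among genes above background on all 5 arrays, 7 of 12 were higher and 0 lower. Cth, which makes cysteine from cystathionine, read -1.79, -1.87 and -1.90 in CM and 1.46 and 1.55 in DIFF (3.36 ± 0.13). The fructose bisphosphatase Fbp1, above background on no DIFF array, and the glucose phosphatase G6pc (-0.64), above it on 1 of 2, did not pass.

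Of 34 drug-metabolising genes tested, 7 were higher (20.6%) and 13 lower (38.2%), against 19.1% and 27.4% of all genes. The higher share was thus near that of all genes. The split became 12 and 11 with median centring and 7 and 8 with normexp. Adh1, the class I alcohol dehydrogenase, read -3.09, -3.07 and -3.25 in CM and 4.54 and 4.22 in DIFF (7.51 ± 0.25). Sult1a1, a phenol sulfotransferase, read -1.63, -2.02 and -1.47 against 5.90 and 5.61 (7.46 ± 0.30). Cyp2b10, the classic target of the receptor CAR, was 7.94-fold higher (2.99 ± 0.28), while Nr1i3, which encodes CAR, was lower (-0.68 ± 0.22, adjusted p = 0.0222, and 0.281 with normexp). Ces2c, a carboxylesterase, read 6.71, 6.78 and 6.63 in CM and 1.79 and 1.54 in DIFF (-5.04 ± 0.18). Ces1c and Ces1d were above background on every CM array and on no DIFF array, at least 2.46-fold and at least 1.73-fold lower, and with normexp neither passed (limma adjusted p = 0.503 and 0.861). Also lower were the Cyp2d relatives Cyp2d26 and Cyp2d22 (-3.10 and -2.93), whose probes may share signal, and Cyp1b1 (-4.58 ± 0.23). Transporters of bile acids and organic ions were lower in 7 of 14 and higher in 3, with the canalicular pump gene Abcc2 at -2.42 ± 0.62 (limma adjusted p = 0.00697, and 0.321 with normexp) and the sterol exporter gene Abcg5 at 2.68 ± 0.61.

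Most liver-enriched transcription factors differed by less than 2-fold. Of 27 tested, 4 were higher and 12 lower (median -0.32), 2 and 5 of them by at least 2-fold, and with median centring 11 and 10 and with normexp 2 and 8, so the balance of this list depends on the scaling. Hnf4a read 5.73, 5.67 and 5.82 in CM and 6.06 and 5.86 in DIFF (0.22 ± 0.13, adjusted p = 0.198). Foxa2, a pioneer factor of liver, was higher by 0.58 ± 0.13, and Cebpa did not pass (-0.30 ± 0.16). With normexp background correction Foxa2 no longer passed (adjusted p = 0.0831 in limma). Larger differences were found for Ppara, the nuclear receptor that drives fatty acid oxidation, at -1.62, -1.80 and -1.61 against 1.70 and 1.41 (3.23 ± 0.16). Creb3l3 (-2.10 ± 0.11) and the retinoid partner receptor gene Rxra (-1.98 ± 0.15) were lower. Hnf4g was above background on every CM array and on no DIFF array, at least 1.64-fold lower, a call lost with normexp (adjusted p = 0.971).

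Of 30 genes of PPAR signalling and fatty acid oxidation, 10 were higher and 9 lower. Cd36 and Fabp4, which take up and bind fatty acids, were higher by 3.09 ± 0.57 and 2.72 ± 0.28, and the lipid droplet gene Cidec was lower (-2.16 ± 0.12). Cpt1a, Hadha and Acadl of the oxidation pathway itself did not pass (0.16, -0.07 and -0.05). Probes of Ppara differed in size, so its fold rests on the brightest of them.

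Cholangiocyte and progenitor markers did not move together. Of 32, 8 were higher and 13 lower, and the median of -0.16 became 0.00 with median centring. Krt7, a keratin of bile ducts, read 2.10, 2.11 and 1.98 in CM and 4.92 and 4.58 in DIFF (2.69 ± 0.12), and the water channel gene Aqp1 3.55, 3.41 and 3.89 against 7.61 and 7.23 (3.80 ± 0.25). Spp1, osteopontin, read 0.16, -0.44 and 0.02 in CM and -4.50 and -4.59 in DIFF, where 1 of 2 arrays was above background (-4.46 ± 0.33). Epcam, the adhesion molecule of progenitor cells, read 0.40, 0.52 and 0.48 against -2.42 and -2.73 (-3.05 ± 0.19), and Prom1, the gene of CD133, was lower by -3.48 ± 0.29. Sox9 was lower by -1.11 ± 0.13. Krt19 stood at 8.38 to 8.45 in CM and 8.60 and 8.32 in DIFF (0.04 ± 0.10, adjusted p = 0.801), and Cftr did not pass either (0.02). The Notch ligand gene Jag1 was lower (-2.31 ± 0.12) and the receptor genes Notch2 and Notch3 were higher (1.07 and 1.15), and the median of the 19 Notch genes, -0.21, was 0.02 with normexp.

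Among 33 genes of keratins and epithelial junctions, counted as 1 list, 15 were lower and 4 higher. Cldn2, a pore-forming claudin, was higher (3.01 ± 0.21), and the connexin gene Gja1 lower (-3.33 ± 0.26). Cldn4 and Dsc2 were above background on every CM array and on no DIFF array, at least 5.63-fold and at least 4.20-fold lower, and with normexp neither passed (limma adjusted p = 0.0814 and 0.181). Collagens and matrix genes were lower in 16 of 32 and higher in 5. Col6a3, a chain of microfibrillar collagen VI, read 0.07, 0.44 and 0.33 in CM and was above background on no DIFF array, at least 35.7-fold lower. The elastic fibre gene Fbln5 was lower by -4.08 ± 0.45 and the laminin gene Lama3 by -4.33. DIFF replicate 2 had no value for Lama3, so its SE of 0.21 rests on the spread of the other arrays. Fn1, fibronectin, was higher by 1.26, and Vim lower by -0.45 ± 0.10.

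Known targets of the glucocorticoid receptor were higher in DIFF in 14 of 28 and lower in 6 (median 0.48), with wide differences on both sides. Zbtb16 and Klf15, transcription factors induced by glucocorticoids, were above background on no CM array and read 2.80 and 2.46, and 1.27 and 0.95, in DIFF, at least 206-fold and at least 71.7-fold higher. Mt2, a metallothionein, was lowest in CM, at 4.29, 4.01 and 4.10, against 6.91 to 7.03 in NoRX and 7.94 and 7.69 in DIFF (3.68 ± 0.16). Sgk1, the kinase whose promoter is printed above, read 3.47, 3.48 and 3.64 in CM and 7.24 and 7.02 in DIFF (3.60 ± 0.14). Fkbp5, the receptor's co-chaperone, and Tsc22d3, the leucine zipper protein GILZ, were higher by 3.54 ± 0.11 and 3.00 ± 0.09, and Sgk1, Fkbp5 and Tsc22d3 are named with their values seen. Lower were Aqp3, at 1.62, 1.83 and 1.72 against -3.92 and -3.97 (-5.67 ± 0.16), Hsd11b1, the enzyme that regenerates active glucocorticoid (-3.39 ± 0.19), and the receptor gene Nr3c1 itself (-0.41 ± 0.10, adjusted p = 0.00582, and 0.107 with median centring). Per1 was higher by 0.85 ± 0.11, while among other clock genes Dbp (-2.03 ± 0.09) and Bhlhe41 (-3.68 ± 0.33) were lower, 9 of 18 clock genes in all being lower and 5 higher.

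Interferon-stimulated genes were lower in DIFF, 27 of 36 by limma with 0 higher, also 0 at an unadjusted p under 0.05 (median -1.22). With median centring 1 was higher and 27 lower, and within row 2 of the slide 1 higher and 29 lower. Ifi27l2a read 4.92, 4.79 and 5.10 in CM, 0.06 and -0.52 in DIFF and -0.52 to -0.15 in NoRX (-5.17 ± 0.25), so that DIFF and NoRX overlapped and CM stood above both. Ifit3, which carries both printed elements, read 2.34, 2.28 and 2.43 in CM, -2.15 and -1.85 in DIFF and 0.16 to 0.84 in NoRX (-4.35 ± 0.32). Here NoRX lay between. Oasl1, of the oligoadenylate synthetase family, was lower by -4.22 ± 0.19, and Stat2, a subunit of the interferon transcription factor, by -0.49 ± 0.12. Of the 13 list genes with the element in their promoter, 9 were past the test, against 27 of 36 in the whole list, and Rsad2, Gbp3, Irgm1 and Cxcl10 were not. Rsad2 was above background on only 1 CM and 1 DIFF array, and Cxcl10 on 1 of 2 DIFF arrays. Antigen presentation genes were lower in 13 of 18 and higher in 2 (9 and 2 with median centring, 6 and 1 with normexp), the peptide transporter gene Tap2 by -1.53 ± 0.13 and H2-K1, whose probe may be shared with other H2 genes, by -1.38 ± 0.11, while the chaperone gene Calr was higher (1.06 ± 0.10).

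Targets of the glucose-sensing factors MondoA and ChREBP were lower in 6 of 13 and higher in 1 (7 and 4 when arrays were scaled on the 75th percentile of detected probes). Txnip, the thioredoxin-binding arrestin, read 6.16, 6.29 and 6.14 in CM and 1.86 and 1.57 in DIFF, 22.4-fold lower (-4.48 ± 0.27, adjusted p = 8.25e-08), and NoRX lay lower still at -3.03 to -2.52. Its relative Arrdc4 read 4.53, 4.61 and 4.62 in CM, -0.26 and -0.43 in DIFF and -0.17 to 0.10 in NoRX (-4.93 ± 0.16). Txnip in DIFF thus exceeded NoRX on both arrays, while Arrdc4 in DIFF lay below every NoRX array. The glycolytic enzymes Ldha, Eno1, Pgk1 and Tpi1 did not pass (-0.15 to 0.07), and of 31 glycolysis and hypoxia genes 13 were lower (24 without DIFF replicate 1), such as Pfkfb4 (-2.73 ± 0.17) and the carbonic anhydrase gene Car9 (-1.88 ± 0.14), and 4 higher.

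Genes of the NRF2 oxidant response and glutathione metabolism were lower in 24 of 38 and higher in 6. Nqo1, the quinone reductase, read -0.50, -0.34 and -0.21 in CM and was above background on no DIFF and no NoRX array, at least 23.1-fold lower in DIFF. Cbr1, a carbonyl reductase, read 6.43, 6.48 and 6.37 in CM against 4.03 and 3.80 in DIFF (-2.51 ± 0.12), and Srxn1, sulfiredoxin, was lower by -2.19 ± 0.13. For both, the DIFF arrays lay below the NoRX arrays as well. The higher members included the glutathione transferase gene Gstm2 (1.37 ± 0.19). Cholesterol synthesis genes were lower in 17 of 25 and higher in 4, in steps smaller than those above, such as Hmgcs1 at -0.92 ± 0.12 and Hsd17b7 at -1.67 ± 0.11, with the lanosterol synthase gene Lss at 0.89 ± 0.15.

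**Figure D3:**
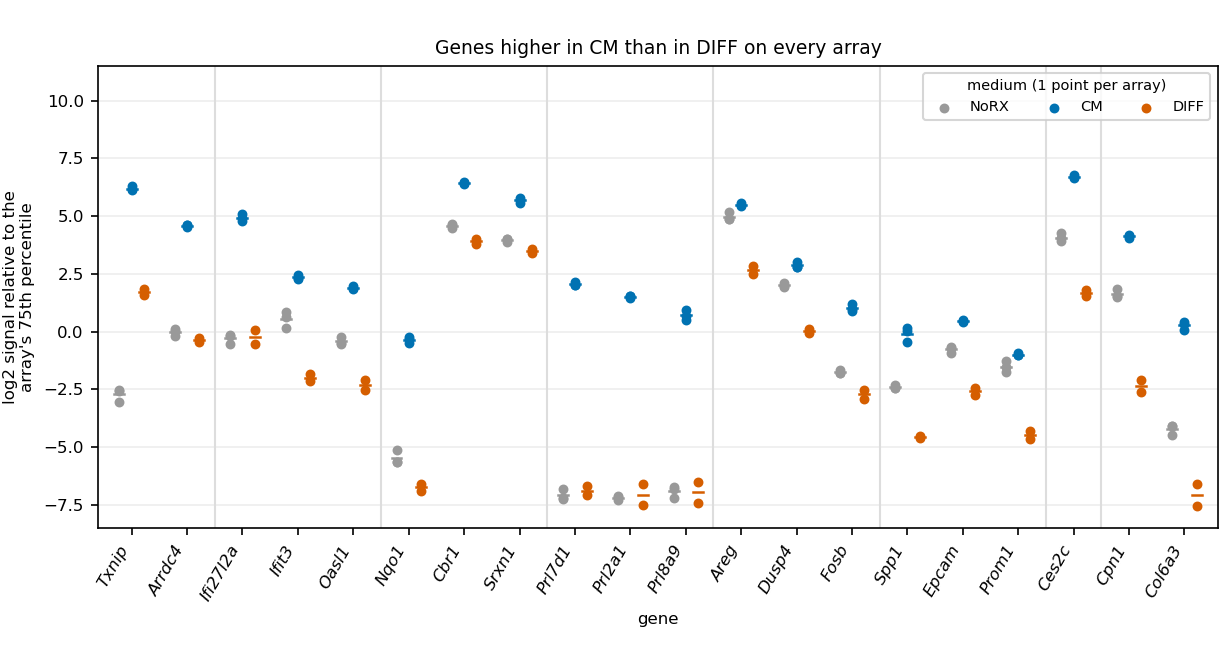
Level of 20 genes that were lower in DIFF than in CM (log2 relative to the 75th percentile, vertical axis) on every array, with points for arrays, short bars for group means, and grey NoRX, blue CM and orange DIFF. Grey vertical lines separate targets of glucose sensing, interferon and NRF2, prolactin relatives, growth factor output, progenitor markers, a carboxylesterase, and finally Cpn1 with Col6a3. The 20 genes were chosen for being lower, and in each of them all CM points lie above both DIFF points.

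Growth factor ligands and immediate targets of ERK signalling were lower in 24 of 33 and higher in 3 (median -1.07). Areg and Btc, ligands of the EGF receptor, read 5.44, 5.56 and 5.46 against 2.52 and 2.86, and 2.06, 2.18 and 2.23 against -0.58 and -0.69 (-2.80 ± 0.19 and -2.80 ± 0.12). Dusp4, an ERK phosphatase, was lower by -2.86 ± 0.17 and Fosb by -3.74 ± 0.20. Exceptions were Egr1 (1.02 ± 0.11), Fos (0.48, limma adjusted p = 0.0146, and 0.19 with normexp) and Myc (1.03 ± 0.12), which were higher, and Ccnd1 read 6.35 to 6.39 in CM and 6.38 and 6.31 in DIFF (-0.03 ± 0.08).

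Genes of cell division were higher in DIFF. Of 33 mitosis genes 22 were higher and 2 lower (median 1.36). Mki67, the proliferation antigen, read -1.12, -1.53 and -1.12 in CM, 0.18 to 0.51 in NoRX and 1.26 and 1.04 in DIFF (2.41 ± 0.27, adjusted p = 1.65e-05), and Bub1, a spindle checkpoint kinase, was higher by 2.38 ± 0.32. Replication genes were higher in 16 of 37 and lower in 4, with the helicase subunit gene Mcm5 at 1.95 ± 0.25 and the primase subunit gene Prim2 at -1.37 ± 0.13. Cdk1 did not pass (0.07 ± 0.24), and the cell cycle inhibitor Cdkn1a was lower (-1.08 ± 0.11), although its probes ranged in size. Ribosome biogenesis and MYC network genes were higher in 26 of 37 and lower in 2, in small steps (median 0.42), and with normexp 13 were higher. Of 30 genes of ATF4 and amino acid supply, 20 were higher and 3 lower, with the transporter genes Slc7a5 at 2.11 ± 0.14 and Slc7a3, above background on no CM array, at least 8.35-fold higher. The ATF4-linked stress gene Ddit3 was lower (-0.62 ± 0.13). Chaperones of the endoplasmic reticulum were higher in 13 of 23 and lower in 1 (8 and 1 with normexp), led by Sdf2l1 (1.41 ± 0.13) and Herpud1 (1.34 ± 0.11).

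**Figure D4:**
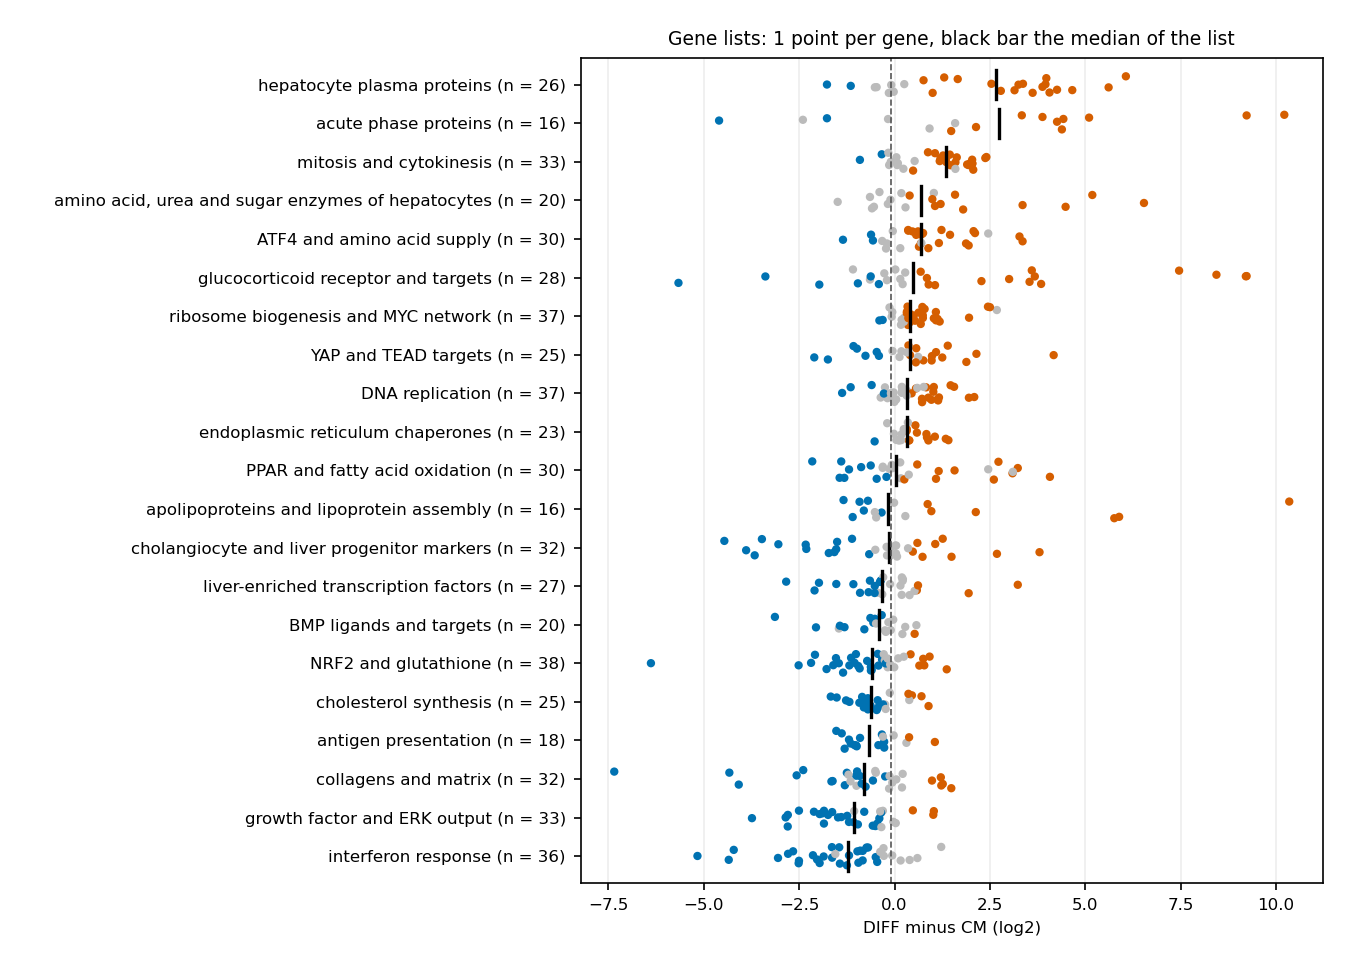
Difference between DIFF and CM (log2, horizontal axis) for each tested gene of 21 lists, 1 point per gene, orange for higher and blue for lower past the test and grey for neither. Black bars give list medians, from 2.74 for acute phase proteins to -1.22 for the interferon response, and the dashed line marks the median of all genes, -0.098.

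Wnt genes showed differences of opposite sign within the family. Wnt4 read -4.51, -4.34 and -4.32 in CM and 4.81 and 4.56 in DIFF (9.08 ± 0.35), and Wnt10a was higher by 4.27 ± 0.19. Wnt6 and the repressor gene Tcf7l1 were above background on no CM array, at least 10.9-fold and at least 14.1-fold higher. Wnt11 (-3.21 ± 0.21) and Rnf43, a Wnt target that removes its receptors (-2.32 ± 0.11), were lower, 11 of 27 genes in all being lower and 8 higher. Of 30 TGF-beta genes 15 were lower and 8 higher, among them the ligand gene Tgfb1 (-1.71 ± 0.13), the transcription factor gene Snai1, at least 6.25-fold lower (limma adjusted p = 4.36e-06, and 0.0592 with normexp), and the secreted target Tgfbi, above background only in DIFF and at least 3.59-fold higher. Bmp2 read 4.26, 4.23 and 4.12 in CM and 1.2 and 0.93 in DIFF (-3.14 ± 0.15), and the BMP target Id3 was lower by -2.06 ± 0.11. Of 25 YAP and TEAD targets 13 were higher and 7 lower, with Ankrd1 at 2.15 ± 0.20, Amotl2 at 1.88 ± 0.13, and Yap1 itself at -0.76.

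Some of the widest differences lay in genes better known from other tissues. Lypd3 read 4.04, 4.28 and 4.12 in CM and was above background on no DIFF array, at least 521-fold lower, although its spot lies in rows 1 to 30 of the array. Tmigd1, an adhesion molecule of kidney and gut, was at least 182-fold lower. Uts2, the peptide urotensin 2, read 4.99, 5.02 and 4.98 against -2.20 and -2.51 (-7.35 ± 0.14), and Clca4a -7.90 ± 0.25. The prolactin relatives Prl7d1, Prl2a1 and Prl8a9, hormones of the placenta, were above background on all CM arrays and on no DIFF or NoRX array, at least 122-fold, at least 83.7-fold and at least 48-fold lower, and their probes may share signal. Of 12 prolactin family genes tested, 6 were lower and 0 higher by limma, also 0 at an unadjusted p under 0.05. At least 7 of the 12 entered the test through the CM arrays alone. They were above background on no DIFF or NoRX array, so the filter set their direction and the count of 0 higher says little. The list's median of -2.76 was -0.76 with genes at their bound and -0.028 with normexp, where 3 were lower. On the other side, Amy2a5 and Amy1, amylases that share sequence, were above background only in DIFF, at least 265-fold and at least 117-fold higher, while the elastase gene Cela1 was lower (-1.83 ± 0.15). Tff3, a peptide of mucus, read 1.80, 1.75 and 1.65 in CM and 7.46 and 7.19 in DIFF (5.59 ± 0.24).

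Markers of other cell types were also compared. Intestinal markers were lower in 10 of 18 and higher in 3, with linear signals, as a percentage of each array's 75th percentile and summed over the markers, of 101000 to 104000 in CM and 94300 to 114000 in DIFF. Stellate cell and fibroblast markers were lower in 3 of 8 (6 without DIFF replicate 1) and higher in 0, also 0 at an unadjusted p under 0.05 in limma, with sums of 179 to 210 in CM and 45.7 to 57.1 in DIFF, and 8 of 16 markers were above background nowhere. Macrophage and leukocyte markers were lower in 5 of 7, with Mrc1 at -4.78 ± 0.12, Lilrb4a at -7.32 ± 0.26 and sums of 5630 to 5910 in CM and 1320 to 1540 in DIFF. Endothelial sums were 2250 to 2400 in CM and 2140 to 2440 in DIFF, and acinar sums 1760 to 2010 and 3650 to 3780, against 12000 to 14100 in NoRX. Erythroid sums were 50.2 to 75.9 and 92.5 to 97. The erythroid median over 3 genes, -0.27, was 0.47 with normexp. The part of other cell types in these results was not tested.

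NoRX lay between CM and DIFF for most of the wide differences. Of the 932 genes at least 2-fold higher in DIFF, the NoRX mean was between the means of CM and DIFF in 693 (74.4%), below both in 148 (15.9%) and above both in 91 (9.76%). Of the 1454 at least 2-fold lower, it was between in 1150 (79.1%), above both in 201 (13.8%) and below both in 103 (7.08%). Kcne3, a potassium channel subunit, is a gene of the first kind, at -5.60, -6.53 and -5.85 in CM, -2.07 to -2.09 in NoRX and 0.21 and -0.14 in DIFF. Because both differences share the same CM and DIFF values, these shares describe positions and carry no test.

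**Figure D5:**
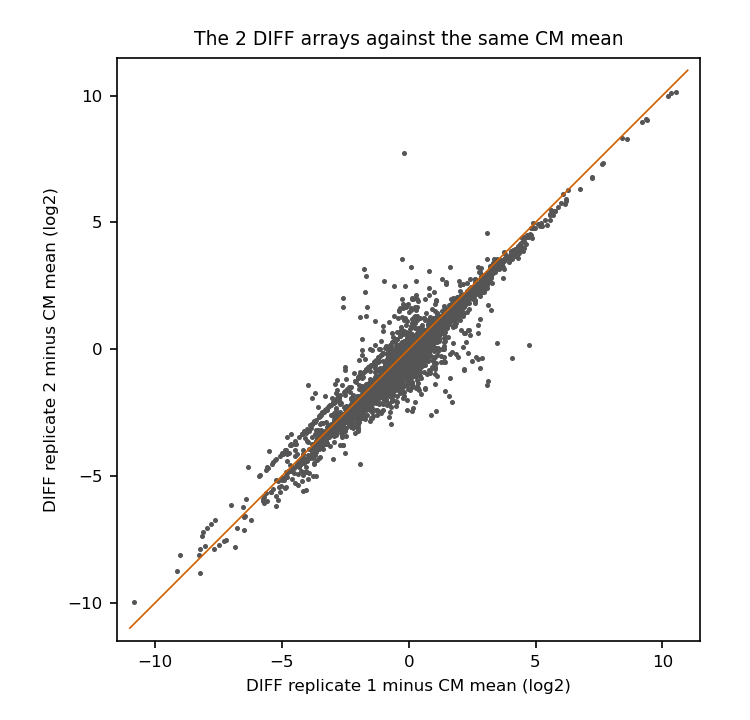
Difference of DIFF replicate 2 from the CM mean (log2, vertical axis) against that of DIFF replicate 1 (horizontal axis), 1 point per gene, with the line of equality in orange. Most points lie somewhat below the line, as the median of -0.215 between the 2 arrays states. Of 1002 genes at least 4-fold different on average, 1 (Slc36a1, seen after the fact) had DIFF arrays on opposite sides of the CM mean. In the rows of the bright patch, spots whose DIFF arrays disagreed over 4-fold were left out before this count. For those rows the count therefore cannot show how far the 2 DIFF arrays agreed.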

How the data were processed

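RNA of BMEL cells was measured on 8 Agilent 1-colour arrays (3 NoRX, 3 CM, 2 DIFF). The deposited spot values are an intensity on a linear scale, background-subtracted and detrended array by array, per the file headers. The software was Agilent Feature Extraction 11.0.1.1, per the submitters' processing notes. No scaling across arrays is recorded in these sources. Intensities in the deposited series table were identical. Here control and outlier-marked spots were left out, and each array's log2 intensity was then taken minus its 75th percentile. Spots in rows 1 to 30 whose DIFF arrays disagreed over 4-fold were left out after this scaling. The 75th percentile of DIFF replicate 2 therefore included patch spots that were not outlier-marked. Of 55681 probes, 27235 matched a RefSeq accession of assembly GRCm38.p6. The array design uses another assembly, mm9, so no probe coordinates are given. The probe brightest over all 8 arrays stood for its gene, and probes well above background on at least 2 arrays were tested. Of 3572 genes with several probes that met this limit, 852 had probes whose mean differences were of opposite sign. In 258 of these 852 the gene passed the test on its brightest probe. Whether the other probes passed was not counted. Arrays carry no counts, so their number limits the precision.

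DIFF and CM were compared with limma 3.58.1 in R 4.3.3 (lmFit with arrayWeights by medium, then eBayes with a trend), two-sided, over all 8 arrays with 5 residual degrees of freedom and Benjamini-Hochberg adjustment at 0.05. The weights were 0.222 for DIFF arrays, 1.64 for CM and 1.67 for NoRX. The members and lists were chosen with earlier results of these data known. Named genes are the 15 highest and 15 lowest differences above background on all 5 arrays without overlap, up to 8 bounds per direction, up to 5 called members per list and direction, and a panel of lineage, cycle and pathway genes. List members without a call, and Sgk1, Fkbp5, Tsc22d3, Stat2, Nr1i3, Cyp2d22 and Slc36a1, were named after their values were seen. Not every gene that the rule gave is described, and some are not reported here. Normexp, an alternative, used the median signal and median background because the files used here hold no mean signal. The functions were tested on simulated arrays.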

Additional observations from a re-analysis of the deposited data

Results flagged for a closer look

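Probes without a gene name entered no comparison above. Of 27906 such probes, 96 were well above background on both DIFF arrays and on no NoRX array. Against CM, 117 were above background on both DIFF arrays and no CM array, and 286 on all CM arrays and no DIFF array. Their identity was not determined.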

How the results depend on the processing

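Genes higher and lower in DIFF numbered 2645 and 3798, and most alternatives kept both counts within 1.5 times. Beyond that lay the higher count with median centring (4104), with the 75th percentile of detected probes (4552) and with normexp (1478), and the lower count with normexp (2339). Also beyond it were the higher count without DIFF replicate 2 and the lower count without DIFF replicate 1. Leaving out 1 array gave 2519 to 4684 higher and 3608 to 6336 lower, both lows without CM replicate 2, the 6336 lower without DIFF replicate 1 and the 4684 higher without DIFF replicate 2. In these fits the lone DIFF array is assumed to vary as the other groups do. With both DIFF arrays averaged to 1 sample, 3768 were higher and 5206 lower. Slc36a1 reversed without DIFF replicate 2 (-0.17) and stood at 7.76 without DIFF replicate 1. List medians farther from 0 than the spread between replicates that changed sign were those of the cholangiocyte markers with median centring (0.0033), of Notch genes with normexp (0.022), and of erythroid markers with normexp (0.467) and when every array had to be above background (0.572). Medians within that spread, of the hepatoblast, coagulation, metal, IGF, PPAR, heat shock and endothelial lists, also changed sign under 1 or more settings. The cause was not tested. When every array had to be above background, 7 acute phase genes were left with 5 higher and 1 lower. Replicate numbers of CM and DIFF arrays did not pair them (correlations of deviations -0.016 and 0.0187), and with a replicate block 2717 were higher and 3806 lower. That block ended no call among the genes named above, and Gbp3 and Irgm1 passed with it (limma adjusted p = 0.0157 and 0.0294). Normexp ended 12 calls among the genes named above. Signal over background limits genes dim in 1 medium, whose folds are bounds under the main processing only.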
